A study of Homo sapiens with 6 samples.

Results

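EMP1, EMP2, EMP3 and PMP22 make up the PMP22 family of small glycoproteins that span the membrane with 4 helices, and their transcripts were described here in HGC-27 cells, an established line of undifferentiated human gastric carcinoma. The genes were taken by symbol from the deposited table, which held each of the 4 once among 58735 genes. EMP1 was selected on its p-value in the comparison of shACAT2 with shNC cells, where it ranked first among the genes that were higher in shACAT2 cells. Its difference between the groups is therefore given as a description without a test. The other 3 genes were taken because they are its close paralogues. The shNC group (genotype WT in the labels) carried pSIH-H1-Puro-shNC and the shACAT2 group (ACAT2 knockdown) carried pSIH-H1-Puro-shACAT2, with 3 libraries of total RNA each. Cells of both groups were exposed to the vector for 24 h and then kept in puromycin for 7 days. The control was an empty vector according to the methods of the study, and the labels do not say which of its ACAT2 hairpins the shACAT2 cells carried, so 1 hairpin or a mixture was compared with 1 control.

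The family is named after peripheral myelin protein 22, a component of compact myelin made by Schwann cells, whose gene dosage is critical in inherited neuropathies of the Charcot-Marie-Tooth type. PMP22 was also found as a growth arrest-specific gene in fibroblasts, and the epithelial membrane proteins EMP1, EMP2 and EMP3 are made in many tissues outside the nerve. The fold is shared with the claudins of tight junctions, and members of the family are known to associate with integrins and with the ATP-gated channel P2RX7 at the cell surface.

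The sequences just upstream of the transcription starts are shown because EMP1 and its paralogues differ in base composition there. They were read from the RefSeq table on GRCh38.p14, which matched all 4 genes with 7 starts, and cut where an annotated exon begins. The EMP1 stretch lies at chr12:13196476-13196715 on the plus strand, EMP2 at chr16:10580699-10580848 on the minus strand, EMP3 (the second of its 2 starts) at chr19:48325749-48325990 on the plus strand and PMP22 (the second of its 3 starts) at chr17:15262590-15262802 on the minus strand. The EMP1 and EMP2 stretches end just before the first base of the annotated gene, whereas those of EMP3 and PMP22 lie inside the annotated gene, in an intron of longer transcripts. Each is printed 5′ to 3′ on the strand of its gene, and capitals mark a match to TGAGTCA, the letters of an AP-1 element.
EMP1: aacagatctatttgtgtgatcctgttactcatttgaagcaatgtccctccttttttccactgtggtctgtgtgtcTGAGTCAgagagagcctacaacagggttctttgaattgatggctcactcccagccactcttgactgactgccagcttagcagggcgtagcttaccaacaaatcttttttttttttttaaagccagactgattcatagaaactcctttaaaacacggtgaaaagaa
EMP2: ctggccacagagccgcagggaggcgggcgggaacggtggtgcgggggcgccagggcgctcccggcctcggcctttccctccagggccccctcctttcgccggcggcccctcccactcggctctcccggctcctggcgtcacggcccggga
EMP3: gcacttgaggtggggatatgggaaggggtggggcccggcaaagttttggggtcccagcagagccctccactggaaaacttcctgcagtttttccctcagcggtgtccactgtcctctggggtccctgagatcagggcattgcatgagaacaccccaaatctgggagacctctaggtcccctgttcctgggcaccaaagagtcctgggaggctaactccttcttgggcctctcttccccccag
PMP22: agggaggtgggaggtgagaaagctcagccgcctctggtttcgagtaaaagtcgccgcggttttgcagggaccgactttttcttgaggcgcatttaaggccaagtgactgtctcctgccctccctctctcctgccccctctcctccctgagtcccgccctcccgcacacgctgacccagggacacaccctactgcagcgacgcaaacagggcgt
Over the full 250 bases before the start, the G and C content was 42.4% for EMP1 and 77.2% for EMP2, against a median of 58% over all 35116 starts in the table. It was 59.2% at both starts of EMP3 and between 48.8% and 69.6% at the 3 starts of PMP22. On either strand, the search for TGAGTCA found 1 match, which begins at −175 from the EMP1 start, and such a match was present at 4.2% of all starts. GGAATG, the core letters of a TEAD site, was found at none of the 7 starts and at 11.9% of all starts, and TATAAA was found only at the first start of EMP3 and at 10.7% of all starts. A match of letters is not evidence that a factor binds.

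Values are FPKM, fragments per kilobase of summed exons, corrected by the authors for the size of each library. The number of fragments on genes lay between 14086416 and 16067486 per library, and limma was run on log2(FPKM + 1) for the 13832 genes whose mean reached 1 FPKM in shNC or shACAT2 cells, among them all 4 members. A log2 fold change on this scale understates the change of low genes. The targeted gene ACAT2 was at 12.9 ± 1.25 FPKM across shNC and 5.90 ± 0.388 FPKM across shACAT2 libraries (± SD, 3 libraries per group), a log2 fold change of −1.01 (SE, the standard error, 0.10, limma adjusted p = 0.0059). The pair shNC-2 and shNC-3 had a chi-square per gene of 1.73, where pairs elsewhere within the groups had 12.1 to 46.0. A value of 1.73 exceeds sampling noise, and both libraries entered the tests, but whether they come from separate cultures was not tested. With their average as 1 library, 83 genes were called in place of 706. The p-values measure the spread between these libraries. Fragments unique to 1 library were found for 7477 genes in shACAT2-3 and for 416 to 657 genes in each of the others, and no member is among the genes concerned. The cells had little RNA of epithelial or stomach markers. The 5 epithelial markers KRT8, KRT18, KRT19, EPCAM and CDH1 summed to between 0.505 and 0.830 FPKM in shNC and between 1.44 and 2.22 FPKM in shACAT2 libraries, and the 6 gastric markers to at most 0.648 FPKM in either group, with TFF1 and GKN1 at 0 in all 6 libraries, while VIM, which encodes vimentin, lay between 245.7 and 292.4 FPKM in shNC and between 340.5 and 461.1 FPKM in shACAT2 libraries. The mesenchymal markers FN1 and CDH2 were low, FN1 between 1.809 and 2.425 FPKM with overlapping groups and CDH2 at or below 0.0808 FPKM. Both the epithelial sum and VIM were thus higher in shACAT2 libraries. Of the epithelial markers, CDH1 lay between 0.120 and 0.222 FPKM in shNC and between 0.608 and 1.154 FPKM in shACAT2 libraries. KRT8 overlapped between the groups, and KRT18, KRT19 and EPCAM stayed at or below 0.212 FPKM. The part of these markers in the results was not tested. The 8 markers of Schwann cells and myelin summed to between 0.835 and 1.02 FPKM in shNC and between 0.883 and 1.19 FPKM in shACAT2 libraries. The 5 markers of blood cells and vessels stayed at or below 0.611 FPKM in sum. As these are bulk libraries, more cells that express a gene and more RNA per cell cannot be told apart.

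EMP1 (ENSG00000134531), first studied as a tumour-associated membrane protein of epithelia, was the lowest of the 4 genes in control cells and the one with the largest fold difference between the groups. It is found on chromosome 12 (GRCh38), from 13196716 to 13219939 on the plus strand. Its level was 1.20, 1.06 and 1.32 FPKM in shNC-1, shNC-2 and shNC-3, from 144, 135 and 178 fragments. In shACAT2-1, shACAT2-2 and shACAT2-3 it was 6.47, 5.995 and 5.96 FPKM, from 770, 781 and 701 fragments. The groups were far apart, since the lowest shACAT2 library was 4.53 times the highest shNC library, and the libraries within a group were close together. The mean was 1.19 ± 0.128 FPKM across shNC and 6.14 ± 0.285 FPKM across shACAT2 libraries (± SD, 3 libraries per group), a ratio of 5.15. The spread within the groups, 10.7% of the mean in shNC and 4.64% in shACAT2 cells, was near the counting error of single libraries, which was 7.50% to 8.61% in shNC and 3.58% to 3.78% in shACAT2 libraries. The choice of EMP1 by p also favours a small spread, so this closeness and its SE are descriptions too. The log2 fold change was 1.70 on the log2(FPKM + 1) scale (SE 0.09), and 2.31 in limma-voom on the fragments read back from the table, where no pseudocount of 1 FPKM is added. By size of the log2 fold change, EMP1 was number 12 of the 13832 genes tested. The gene next to EMP1 in the ranking by p was DKK1, which encodes a secreted Wnt antagonist and was at 7.60 ± 0.371 FPKM across shNC and 32.0 ± 3.72 FPKM across shACAT2 libraries (± SD, 3 libraries per group).

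**Figure D1:**
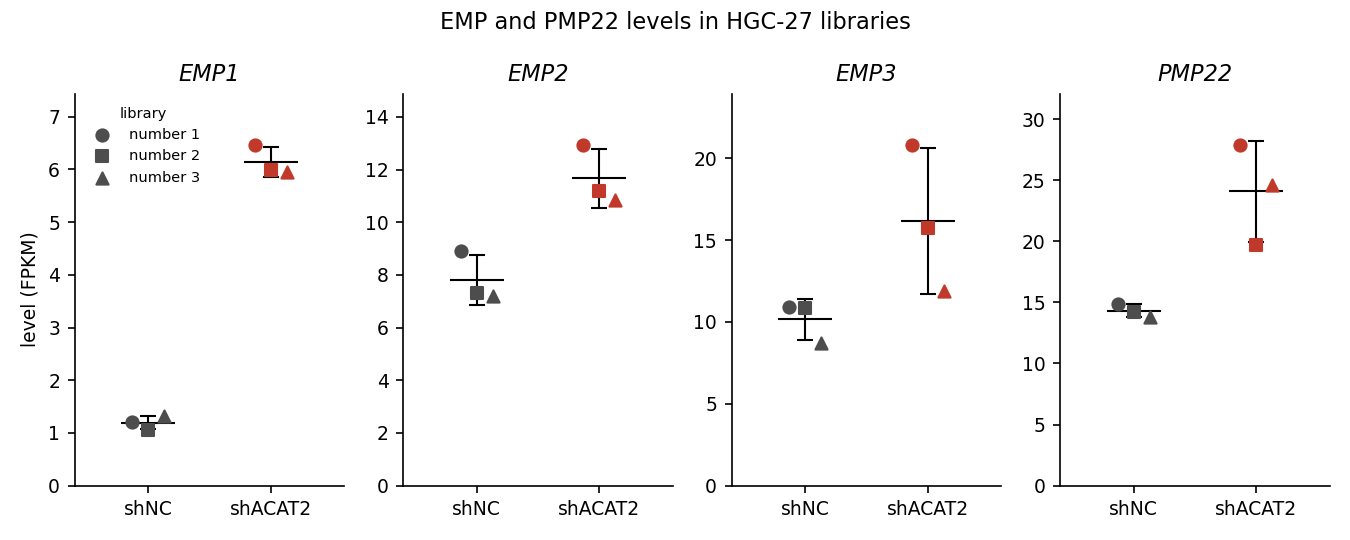
Level in FPKM (linear axis from 0, scaled separately for each gene) of EMP1, EMP2, EMP3 and PMP22 in the 3 shNC (grey) and 3 shACAT2 (red) libraries. Symbols give the replicate number, and the black bar with whiskers is the mean ± SD. For each gene the 3 shACAT2 libraries lie above the 3 shNC libraries, with the widest relative gap for EMP1 (means of 1.19 and 6.14 FPKM) and the widest spread for EMP3 in shACAT2 cells (11.9 to 20.8 FPKM).

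PMP22 (ENSG00000109099), the founding member, was the highest of the 4 genes in FPKM and the only paralogue to pass the threshold in the unpaired limma test on log2(FPKM + 1) with the filter and scaling given above. It lies on chromosome 17 from 15229777 to 15265357 on the minus strand. Its level was 14.9, 14.2 and 13.8 FPKM in shNC-1, shNC-2 and shNC-3 and 27.9, 19.7 and 24.6 FPKM in shACAT2-1, shACAT2-2 and shACAT2-3, from 734 to 1365 fragments per library. The control libraries were nearly equal and the shACAT2 libraries were all higher, with shACAT2-2 the lowest of them. PMP22 rose from 14.3 ± 0.543 to 24.1 ± 4.12 FPKM (± SD, 3 libraries per group), a log2 fold change of 0.70 (SE 0.14, 95% interval 0.37 to 1.02, limma adjusted p = 0.038). The call depended on the libraries used. With shNC-1, shNC-2 or shNC-3 left out its limma adjusted p was 0.113, 0.158 or 0.168, with shACAT2-2 or shACAT2-3 left out it was 0.0515 or 0.0624, and when shNC-2 and shNC-3 entered as their average it was 0.165, while the log2 fold change stayed between 0.59 and 0.83. Among all genes tested, 135, 101 and 63 were called in the fits without a control library, 129 without shACAT2-2 and 704 without shACAT2-3, against 706 with all 6 libraries.

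EMP2 (ENSG00000213853), a regulator of integrin and caveolin traffic at the plasma membrane, differed by less than PMP22. Its spread was 12.1% of the mean in shNC and 9.65% in shACAT2 cells, against 3.79% and 17.1% for PMP22. It lies on chromosome 16 from 10528422 to 10580698 on the minus strand. Its level was 8.90, 7.32 and 7.22 FPKM in shNC-1, shNC-2 and shNC-3 and 12.9, 11.2 and 10.8 FPKM in shACAT2-1, shACAT2-2 and shACAT2-3, from 1034 to 1714 fragments per library. The groups did not overlap, and in both groups the library with number 1 was the highest. Number 1 also had the largest FPKM sum over all genes. The sum was 297900 in shNC-1, against 273746 and 274873 in shNC-2 and shNC-3. In shACAT2-1 it was 320721, against 279756 and 282096 in shACAT2-2 and shACAT2-3. The mean was 7.81 ± 0.942 FPKM across shNC and 11.7 ± 1.13 FPKM across shACAT2 libraries (± SD, 3 libraries per group). The log2 fold change was 0.53 (SE 0.12, 95% interval 0.25 to 0.80, limma adjusted p = 0.053), just short of the threshold. With a block for the replicate number the limma adjusted p was 0.020, and within the numbers 1, 2 and 3 the ratio of shACAT2 to shNC was 1.46, 1.53 and 1.50.

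EMP3 (ENSG00000142227), a glycoprotein that is often high in mesenchymal-like tumour cells, varied most between the shACAT2 libraries. It lies on chromosome 19 from 48321509 to 48330553 on the plus strand. Its level was 10.9, 10.8 and 8.70 FPKM in shNC-1, shNC-2 and shNC-3 and 20.8, 15.7 and 11.9 FPKM in shACAT2-1, shACAT2-2 and shACAT2-3, from 250 to 527 fragments per library. All 3 shACAT2 values lay above the shNC values, but shACAT2-3 exceeded the highest shNC library by a factor of only 1.09. The mean was 10.2 ± 1.27 FPKM across shNC and 16.2 ± 4.47 FPKM across shACAT2 libraries (± SD, 3 libraries per group). The log2 fold change of 0.59 (SE 0.20, 95% interval 0.12 to 1.06) did not pass the threshold (limma adjusted p = 0.135). It passed with the replicate block (limma adjusted p = 0.041) and without shACAT2-3 (log2 fold change 0.78, limma adjusted p = 0.048). Within the numbers 1, 2 and 3 the ratio of shACAT2 to shNC was 1.90, 1.45 and 1.37.

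As a family, 1 of the 3 paralogues rose at a limma adjusted p under 0.05, against 3.3% of all genes tested. With a block for the replicate number all 3 rose, PMP22 at a limma adjusted p of 0.030, against 7.67% of all genes tested. With limma-voom on the recovered fragments EMP2 and PMP22 passed (limma adjusted p = 0.024 and 0.020) and EMP3 did not (0.088), against 4.22%. All 3 paralogues had the 3 shACAT2 values above the 3 shNC values, as had 16.2% of the genes tested, and the two-sided exact permutation test gave p = 0.1 for each, the smallest p that 3 against 3 libraries allow. Of all genes tested, 52.3% had a log2 fold change above 0, and the median was 0.016. The log2 fold changes of EMP2, EMP3 and PMP22 were exceeded by 5.65%, 4.17% and 2.81% of the genes tested. That of EMP1 exceeded the mean of its 3 paralogues by 1.10 on the log2(FPKM + 1) scale, a difference that the choice of EMP1 makes a description.

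**Figure D2:**
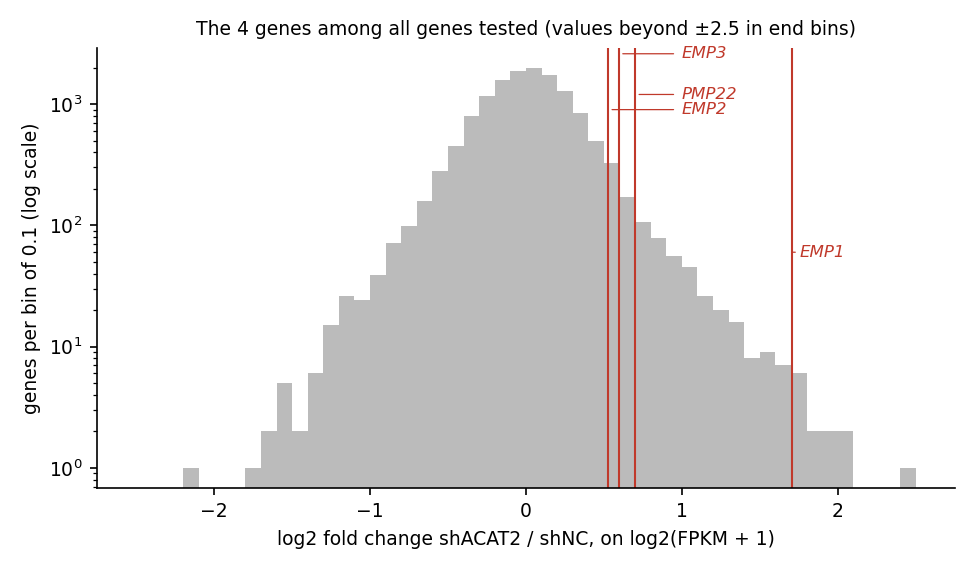
Number of genes (log axis) by log2 fold change between shACAT2 and shNC cells on the log2(FPKM + 1) scale, for the 13832 genes tested, with red lines at the 4 family members. EMP2, EMP3 and PMP22 lie together on the right shoulder at 0.53, 0.59 and 0.70, and EMP1 lies in the sparse tail at 1.70.

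**Figure D3:**
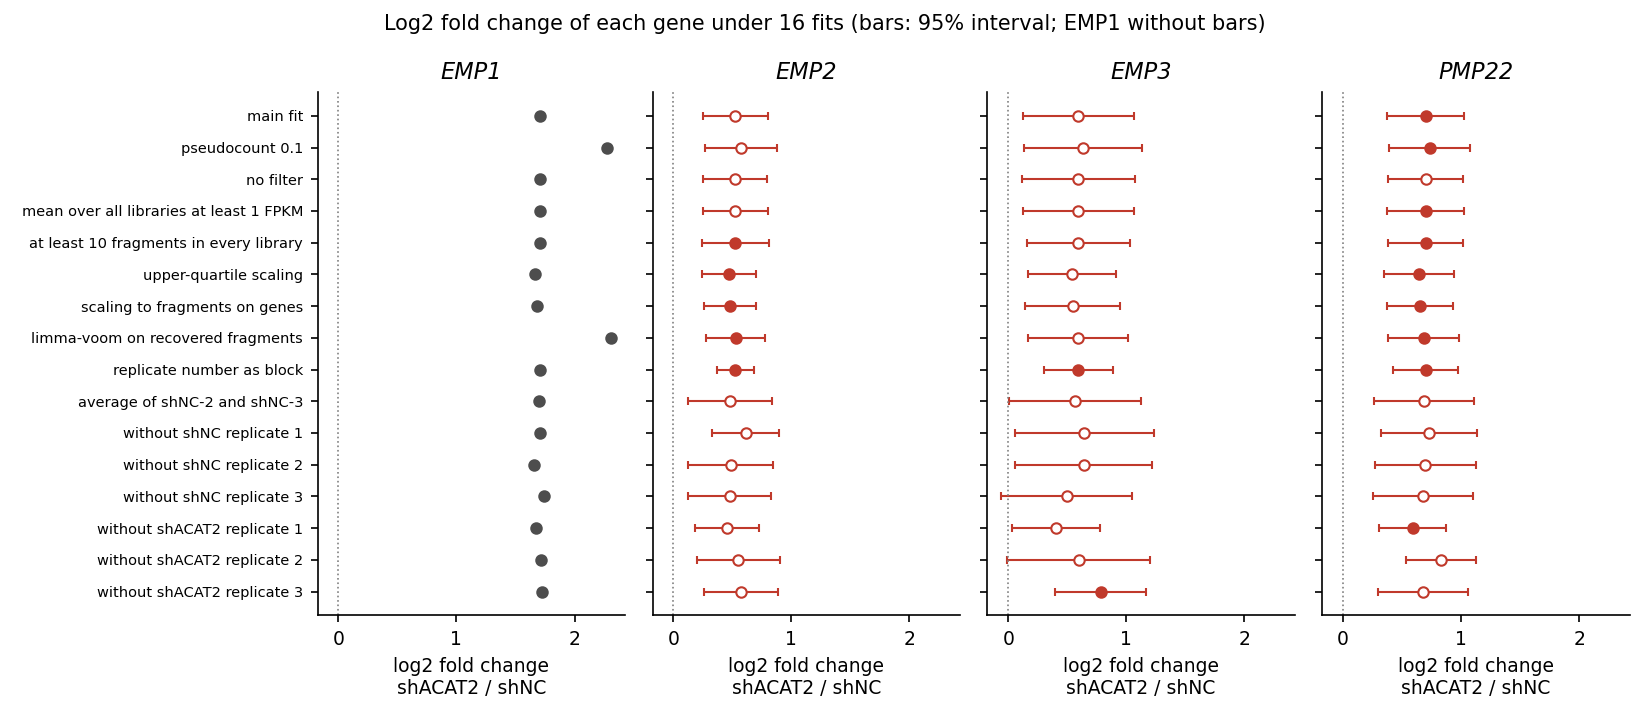
Log2 fold change between shACAT2 and shNC cells of each family member (columns) under 16 fits (lines), with 95% intervals for the paralogues and without for EMP1. Filled red points have a limma adjusted p under 0.05. Every point lies to the right of 0. In the top line, the unpaired test on log2(FPKM + 1), PMP22 is filled (0.038) and EMP2 and EMP3 are not (0.053 and 0.135). EMP2 is filled in 5 of the 15 other lines, EMP3 in 2 and PMP22 in 8, and all 3 are filled with a block for the replicate number.

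On the FPKM scale the order of the levels did not differ between the libraries. In each of the 6 libraries PMP22 was highest, followed by EMP3, EMP2 and EMP1. PMP22 exceeded EMP3 by 1.46 times (geometric mean ratio, range 1.25 to 2.06) and EMP3 exceeded EMP2 by 1.33 times (range 1.10 to 1.61), each in 6 of 6 libraries. The two-sided exact sign-flip permutation test over the 6 libraries gave p = 0.031 for each of the 3 pairs of paralogues (0.031 after Benjamini-Hochberg adjustment), the smallest p that 6 libraries allow. This test takes the libraries as independent, and over the 3 replicate numbers, each the average of its shNC and shACAT2 library, the exact test gave p = 0.25, the smallest that 3 allow. These levels depend on the gene length used, which is the union of all annotated exons, 7838 bases for EMP1 and 8718 for EMP2, against 1667 for EMP3 and 3222 for PMP22. Divided by the longest coding transcript (5921, 5197, 876 and 1861 bases in the order EMP1, EMP2, EMP3, PMP22), the order was the same in all 6 libraries, with ratios of 1.33 for PMP22 over EMP3 and 1.50 for EMP3 over EMP2. The median coding transcript is far shorter for EMP1, at 675 bases, and has 2989, 718 and 1738 bases for EMP2, EMP3 and PMP22. With that length the order does differ between the groups. EMP1 would be the lowest of the 4 genes in each shNC library and the highest in each shACAT2 library. Its share of the sum would also be larger in every library, and neither was tested on that length. EMP1 held 3.34%, 3.17% and 4.24% of the summed FPKM of the 4 genes in shNC-1, shNC-2 and shNC-3 and 9.50%, 11.4% and 11.2% in shACAT2-1, shACAT2-2 and shACAT2-3. The sum itself was between 31.0 and 35.9 FPKM in shNC and between 52.7 and 68.1 FPKM in shACAT2 libraries. Among the 3 paralogues alone, the exact tests found no difference in the proportions, although 3 against 3 libraries cannot go below p = 0.1. PMP22 held 44.4 ± 1.83% of their sum in shNC and 46.5 ± 4.95% in shACAT2 cells (exact permutation p = 0.7), EMP3 31.4 ± 2.10% and 30.9 ± 4.96% (p = 1 in the exact test) and EMP2 24.2 ± 1.53% and 22.6 ± 1.52% (exact permutation p = 0.4, SD and n = 3 per group throughout).

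The strand setting of the counting is not given in the sources used here, so reads from genes on the opposite strand cannot be told apart from those of the members where exons overlap. GENCODE has no gene that overlaps EMP1. CCDC114, on the opposite strand, shares 217 exonic bases with EMP3 (13.0% of its exons) and had a mean of 0.217 FPKM. AC027277.1 shares 533 bases with EMP2 and was at 0 FPKM, and AC005703.6 shares 277 bases with PMP22 and had a mean of 0.191 FPKM.

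Beyond the 4 members, the genes with a claudin-like fold were mostly under 1 FPKM in HGC-27 cells. Of 43 further genes of the superfamily in the table, claudins and calcium channel gamma subunits included, 7 reached the level for testing. PERP and CLDND1 rose (2 of 7, against 3.3% of all genes tested) and none of the 7 fell at a limma adjusted p under 0.05, against 1.81% of all genes. At an unadjusted limma p under 0.05 also 0 fell, against 10.7% of all genes. Limma-voom and the fit with the replicate block each called 0 lower after adjustment, against 4.2% and 4.81%. Without adjustment each had 1 gene lower, and the share of all genes was not taken there. The median log2 fold change of the 7 genes was 0.063. PERP, a p53 effector related to PMP22 that serves in desmosomes, was 8.32, 7.41 and 7.37 FPKM in shNC-1, shNC-2 and shNC-3 and 13.3, 10.4 and 11.4 FPKM in shACAT2-1, shACAT2-2 and shACAT2-3. Its log2 fold change was 0.54 (SE 0.11, limma adjusted p = 0.046), with no overlap of the groups. CLDND1, a claudin domain protein, was at 3.84 ± 0.257 FPKM across shNC and 6.003 ± 0.382 FPKM across shACAT2 libraries (± SD, 3 libraries per group), with a log2 fold change of 0.53 (SE 0.09, limma adjusted p = 0.025). With 1 library left out in turn, PERP passed the threshold without shACAT2-1 (limma adjusted p = 0.049) and had 0.105, 0.196 and 0.196 with shNC-1, shNC-2 or shNC-3 removed and 0.090 and 0.067 without shACAT2-2 and shACAT2-3. CLDND1 passed without shACAT2-1 or shACAT2-3 (limma adjusted p = 0.027 and 0.049) and had 0.097, 0.137 and 0.108 with shNC-1, shNC-2 or shNC-3 removed and 0.097 without shACAT2-2. TMEM47 and CLDN15, the other abundant genes of this list with 7.74 and 10.4 FPKM on average, had log2 fold changes of −0.08 and −0.26 (limma adjusted p = 0.793 and 0.317).

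Among 12 reported binding partners of the family, 9 were tested and 1 rose at a limma adjusted p under 0.05, against 3.3% of all genes, with a median log2 fold change of 0.12. The gene was CD44, which encodes the hyaluronan receptor. It was at 3.66, 3.26 and 3.35 FPKM in shNC-1, shNC-2 and shNC-3 and at 6.93, 7.10 and 7.21 FPKM in shACAT2-1, shACAT2-2 and shACAT2-3. All shACAT2 values were close to each other and above the shNC values, with a log2 fold change of 0.87 (SE 0.08, limma adjusted p = 0.0048, and at most 0.0496 with 1 library left out). CANX, which encodes the chaperone calnexin that binds newly made PMP22, had 182.9 ± 14.8 and 254.5 ± 33.6 FPKM (± SD, 3 libraries per group). RER1, a sorting receptor that returns misfolded PMP22 to the endoplasmic reticulum, had 19.4 ± 2.12 and 25.7 ± 3.25 FPKM (± SD, 3 libraries per group). CANX and RER1 had log2 fold changes of 0.47 and 0.39 (limma adjusted p = 0.104 and 0.136). With a block for the replicate number they rose (limma adjusted p = 0.032 and 0.033), as did the integrin gene ITGAV (10.6 ± 1.97 and 14.2 ± 3.58 FPKM, limma adjusted p = 0.049 with the block and 0.350 without, where its groups overlapped), so 4 of 9 partners rose against 7.67% of all genes and 0 fell against 4.81%. The abundant integrin gene ITGB1 had 43.3 ± 6.38 and 45.4 ± 7.55 FPKM (± SD, 3 libraries per group, log2 fold change 0.06, limma adjusted p = 0.862). None of the 9 fell at a limma adjusted p under 0.05, against 1.81% of all genes. PTK2 and SRC, 2 of the 9, had an unadjusted p under 0.05 in that direction, against 10.7% of all genes, and limma-voom called 1 of the 9 lower, against 4.2%. SRC, a kinase of focal adhesions, had 1.36 ± 0.110 and 0.669 ± 0.0393 FPKM (± SD, 3 libraries per group), a log2 fold change of −0.50 (limma adjusted p = 0.070).

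The 4 members lie on different chromosomes, and no tested gene near them passed the threshold in the unpaired test on log2(FPKM + 1). Of 149 genes within 500 kb of a member, 27 were tested, and 0 rose and 0 fell at a limma adjusted p under 0.05, against 3.3% and 1.81% of all genes tested. Without adjustment 0 rose and 5 fell at a limma p under 0.05. Of all genes tested 10.7% fell at that threshold, and the share that rose was not taken. Limma-voom and the fit with the replicate block each called 2 of the 27 genes lower, against 4.2% and 4.81% of all genes. The 3 shACAT2 values lay below the 3 shNC values for 5 of the 27 genes, against 14.5% of all genes tested, and above them for 2, against 16.2%. Those 5 genes all lie in the window of EMP3, which holds 17 of the 27 tested genes. In the fit with the block the 2 genes were CA11 and LIG1, both near EMP3. CA11 had 7.68 ± 0.827 and 4.60 ± 0.963 FPKM (± SD, 3 libraries per group), with limma adjusted p of 0.053 without and 0.020 with the block. LIG1 had 12.9 ± 1.14 and 9.54 ± 1.875 FPKM (± SD, 3 libraries per group). Its limma adjusted p was 0.160 without and 0.044 with the block. The tested genes around EMP1 were CDKN1B, HEBP1, FAM234B and AC008115.3, with log2 fold changes of 0.28, 0.29, 0.03 and −0.61. The nearest of them is FAM234B, at −54.2 kb from EMP1. TMEM143, the tested gene nearest to EMP3 at 1.8 kb, had a log2 fold change of −0.25 (limma adjusted p = 0.193). The most abundant genes in these windows were RPL18, KDELR1 and CDKN1B, with means of 127.1, 59.0 and 26.8 FPKM and log2 fold changes of 0.14, 0.27 and 0.28.

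**Figure D4:**
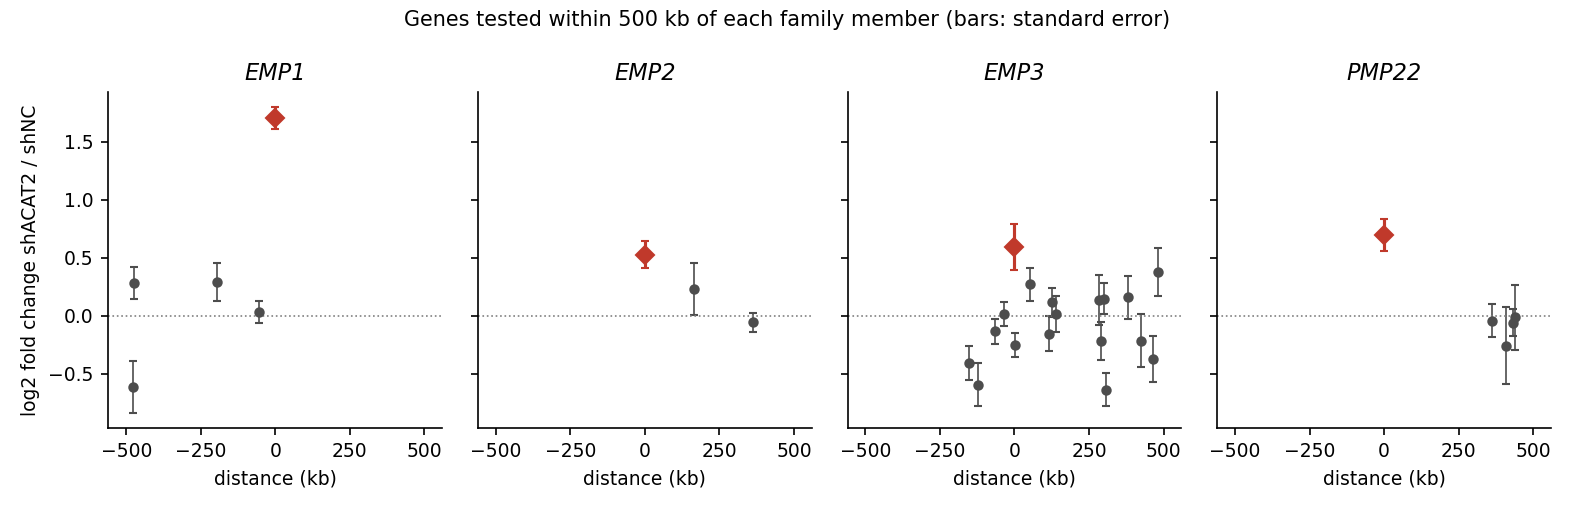
Log2 fold change between shACAT2 and shNC cells of tested genes within 500 kb of each family member (grey points, bars are SEs), by distance from the member in kb along the chromosome. Red diamonds are the members themselves at distance 0. The neighbours of EMP1 lie between −0.61 and 0.29, below EMP1 at 1.70, and those of PMP22 lie between −0.26 and −0.01.

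The genes with profiles most like those of the members were then listed. Likeness was measured as the Euclidean distance between log2(FPKM + 1) profiles centred on their means, so it reflects mainly the difference between the groups. The 5 nearest genes were GPNMB, SFRP4, AMBN, TGM1 and PGAM1, at distances of 0.185, 0.243, 0.270, 0.282 and 0.300, with Pearson correlations of 0.991 to 0.997 with EMP1 over the 6 libraries. GPNMB, a transmembrane glycoprotein, had a mean of 21.8 FPKM across shNC and 69.3 FPKM across shACAT2 libraries. SFRP4, a secreted Wnt antagonist, had 8.82 and 29.7 FPKM, and TGM1, a transglutaminase of the cornified envelope, had 1.37 and 6.30 FPKM, close to the levels of EMP1. PGAM1, a glycolytic enzyme with many near-identical pseudogene copies, had 121.1 and 410.4 FPKM, and how reads were shared with these copies is not given in the sources used here. Nearest to EMP2 were FZD1, FUCA2 and MAX, to EMP3 SH3BGRL3, CARMIL2 and STMN3, and to PMP22 NPC2, TMEM98 and PROK1, with Pearson correlations of 0.985 to 0.997. The near genes were chosen for small distances over these same 6 libraries, so their high correlations follow from that choice and are descriptions. For EMP3 the choice gave genes with its graded levels in the shACAT2 libraries, highest in shACAT2-1 and lowest in shACAT2-3. RPL18 and LIG1, which were not chosen by profile, had the same order, whereas CLDND1 and ITGAV had the reverse order. Whether the gradient is particular to EMP3 and its near genes was not tested. SH3BGRL3 had 31.8, 20.9 and 17.7 FPKM and STMN3 had 74.4, 56.3 and 40.6 FPKM in shACAT2-1, shACAT2-2 and shACAT2-3, against 20.8, 15.7 and 11.9 FPKM for EMP3.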

How the data were processed

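Total RNA of HGC-27 cells was sequenced as 3 shNC and 3 shACAT2 libraries, biological replicates per the labels, and the authors deposited a table of FPKM values for 58735 genes. The submitters' processing notes name HISAT2 2.0.5, featureCounts 1.5.0-p3, DESeq2 1.20.0 and the build hg38, while the strand setting is not given in the sources used here. Gene positions equal GENCODE release 29 for 58724 genes. Groups came from the sample titles. Fragments were read back from FPKM and gene length, and 100% were whole (tolerance 0.01).

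The fixed design allowed for FPKM, so limma 3.58.1 in R 4.3.3 (with a trend) was run on log2(FPKM + 1) for genes whose mean reached 1 FPKM in shNC or shACAT2 cells, with Benjamini-Hochberg adjustment over all of them. It was also run on simulated data, with independent libraries and changes larger than those of the paralogues. That run does not show how reliable the calls of the paralogues are. Python 3.11.15, pandas 2.3.3 and scipy 1.17.1 served for other steps. Samples with the same number in their titles deviated together from their group means (correlations of 0.445, 0.126 and 0.171), and the numbers were used as pairs. Only number 1 stood out, since shNC-2 with shACAT2-3 and shNC-3 with shACAT2-2 gave 0.198 and 0.141. The pairing comes from the data, which do not settle it for the numbers 2 and 3. Calls that need the block rest on this pairing, and blocked values stand beside each result whose call they change.

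The 15 alternatives were another pseudocount, other filters, other scalings, limma-voom on the recovered fragments, the block, shNC-2 and shNC-3 averaged and each library left out. The members and gene lists were chosen with earlier results of these data known. Genes were named by a rule: the members, ACAT2, the gene next to EMP1 by p, the nearest profiles (5 for EMP1, 3 for each paralogue), and in each list the genes past the threshold and the 3 most abundant. TMEM143, FAM234B, HEBP1, AC008115.3, SRC, PTK2, RER1, ITGAV, CA11 and LIG1 were named after their values were seen. Of the lists, 1 gene is not reported here. Counting errors cover counting only.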

Additional observations from a re-analysis of the deposited data

How the results depend on the processing

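All 4 log2 fold changes were above 0 under all 15 alternatives. That of EMP1 was 1.66 to 1.74 in 13 of them, 2.27 with a pseudocount of 0.1 and 2.31 with limma-voom, since the pseudocount enters the scale, and its excess over the mean of the paralogues, 1.10, became 1.63 and 1.71 under these settings. The log2 fold change of EMP2 passed the threshold with at least 10 fragments in every library (0.53, limma adjusted p = 0.041), upper-quartile scaling (0.47, 0.038), scaling to fragments on genes (0.48, 0.033), limma-voom (0.53, 0.024) and the replicate block (0.53, 0.020). EMP3 passed with the replicate block (0.59, limma adjusted p = 0.041) and without shACAT2-3, and ran from 0.40 to 0.78 with 1 library left out. PMP22 did not pass with no filter (0.70, limma adjusted p = 0.108) or when shNC-2 and shNC-3 entered as their average (0.69, 0.165), and ran from 0.59 to 0.83 with 1 library left out. Over the alternatives the limma adjusted p ran from 0.020 to 0.218 for EMP2, 0.041 to 0.368 for EMP3 and 0.020 to 0.168 for PMP22.

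The 2 genes called in the claudin-like list became 0 with no filter and with the average, 1 with upper-quartile scaling and 0 to 2 with 1 library left out. The 1 partner gene became 2 with at least 10 fragments and 2 with limma-voom, there 1 higher and 1 lower. The count became 4 with the replicate block, all higher, and 1 to 2 with 1 library left out. The 0 neighbouring genes became 2 with at least 10 fragments, limma-voom and the replicate block, 1 with upper-quartile scaling and with scaling to fragments on genes, and 0 to 2 with 1 library left out. Among all genes tested the number called was 706, but 1727 with the block, 83 with the average of that pair, 209 with no filter and 63 to 862 with 1 library left out, and the cause was not tested. The block changed no call among the 4 genes other than those of EMP2 and EMP3. Depth limits EMP1 most, with 135 to 178 fragments per shNC library.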
